A study of Homo sapiens with 18 samples.

Results

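MDM2, MDM4, PPM1D, CCNG1, RRM2B, ZMAT3, TP53INP1, PERP and PLK2, which restrain the tumor suppressor p53 or answer to it as targets, were followed in IMR90 cells exposed to an oxidant. They were chosen by gene symbol from the 56269 genes of the deposited table, and all 9 passed the filter on low values that left 13686 genes to be tested. IMR90 cells are human primary lung fibroblasts. Before stress they were held for 6 h with PBS, with 20 μg/ml of cNSF-HA or with 20 μg/ml of fNSF-HA. NSF-HA is the very long hyaluronan secreted by naked mole-rat skin fibroblasts. cNSF-HA is the intact control preparation, which had been mixed with heat-inactivated hyaluronidase, and fNSF-HA is the same hyaluronan partially fragmented by the active enzyme. The HA was then removed, and 3 of the 6 groups received 200 μM tert-butyl hydroperoxide (tBHP), an organic peroxide, for 1 h and were collected 6 h after its start. The other 3 groups were collected at the end of the pre-incubation, so tBHP and the later collection time cannot be told apart. Each group held 3 replicates, which gave 18 libraries.

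In unstressed cells p53 is kept scarce by MDM2, a ubiquitin ligase that marks it for degradation, with the help of MDM4, a related protein that covers the activation domain of p53. DNA damage and oxidants lead to phosphorylation of p53, which escapes MDM2 and switches on target genes. Several of those targets, among them MDM2 itself and the phosphatase PPM1D (also called WIP1), act back on p53 and end the response, so they form negative feedback loops.

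The loop through MDM2 is written in its gene. MDM2 lies on chromosome 12 at 68808176 to 68850686 on the plus strand (GENCODE 29, GRCh38). RefSeq (GRCh38.p14) gives transcript starts in 2 places, and the internal one, 845 bases after the upstream one, belongs to the promoter known for its response to p53. The 250 bases before each start are shown because they hold the contrast between a basal and a p53-responsive promoter, and capitals mark a match to the p53 response element. The searched element was 2 copies of the p53 consensus decamer, with at most 2 mismatches outside the fixed C and G of each copy and a spacer of at most 1 base. The decamer reads the same on both strands.
MDM2 upstream start, chr12:68807922-68808171, plus strand: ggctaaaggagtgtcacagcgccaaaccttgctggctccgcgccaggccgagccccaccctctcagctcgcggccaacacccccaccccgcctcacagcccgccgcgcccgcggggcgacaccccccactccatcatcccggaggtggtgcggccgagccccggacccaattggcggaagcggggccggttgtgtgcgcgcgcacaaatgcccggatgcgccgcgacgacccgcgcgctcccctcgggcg
MDM2 internal start, chr12:68808767-68809016, plus strand: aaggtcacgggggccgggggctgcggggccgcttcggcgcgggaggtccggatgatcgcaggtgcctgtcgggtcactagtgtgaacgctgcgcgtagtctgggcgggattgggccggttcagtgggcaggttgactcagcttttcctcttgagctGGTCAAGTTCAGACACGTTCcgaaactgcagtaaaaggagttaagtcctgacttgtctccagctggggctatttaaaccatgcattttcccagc

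The match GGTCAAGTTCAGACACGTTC ran from 94 to 75 bases before the internal start of MDM2 and had 2 mismatches. Such a match was present in 187 of 35116 RefSeq promoter windows of 300 bases, or 0.533%. Among the 7 members with a window, 12 windows were searched, and 2 held a match, both of them overlapping windows of the internal MDM2 start. The windows of MDM4, PPM1D, CCNG1, ZMAT3, PERP and PLK2 held none at this setting, which says only that these letters were not found there. The deposited counts are per gene and do not separate MDM2 transcripts from the 2 starts.

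Between 20261103 and 26287660 reads per library were counted on genes. Values are normalised read counts, that is, read counts after scaling by DESeq2 size factors. All 10 fibroblast markers were abundant (summed value 458889 to 722451), while the summed values of epithelial, endothelial and leukocyte markers reached at most 14.5, 25.1 and 19.0 in any library. Fits used limma on log2(value + 1), where a log2 change of 1 is a doubling, with p-values adjusted over all 13686 genes and a threshold of 0.05. After tBHP, replicate 2 of the fNSF-HA group stood apart. Its genes in the lowest quintile of transcript GC content were 0.43 above the mean of the 9 tBHP libraries on the log2 scale, and those in the highest quintile were 0.61 below it (medians).

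Per kilobase of exon, so that genes can be compared, the levels in PBS cells spanned more than a factor of 10. CCNG1 (659 ± 32.7 normalised reads per kb, SD, n = 3), PERP (509 ± 19.7) and PLK2 (304 ± 13.4) were the highest in that order. All exons of a gene were merged for its length, which gave 4768 bases for PLK2, whose longest transcript has 2960. For PERP both lengths are 4290 bases, so the gap between PERP and PLK2 depends on this choice. MDM2 followed with 139 ± 3.61, and RRM2B (117 ± 9.44) and ZMAT3 (116 ± 8.26) did not differ beyond their spread. PPM1D stood at 70.1 ± 4.09 and MDM4 at 52.7 ± 3.66. TP53INP1 was the lowest at 44.6 ± 5.24, more than 1 SD below MDM4. The 3 most abundant members were also the ones that were lower after tBHP, as described below.

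After tBHP the feedback inhibitors MDM2 and PPM1D and the targets TP53INP1, RRM2B and ZMAT3 were higher in PBS cells. CCNG1, PERP and PLK2 were lower. Among the 9 members, 5 rose, 3 fell and MDM4 did not pass the test. Over all genes tested in these cells, 24.2% rose and 26.9% fell. TP53INP1 and MDM2 changed the most, 3.30-fold and 2.75-fold, and stood at places 131 and 202 of 13686 genes ordered from the largest rise.

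**Figure D1:**
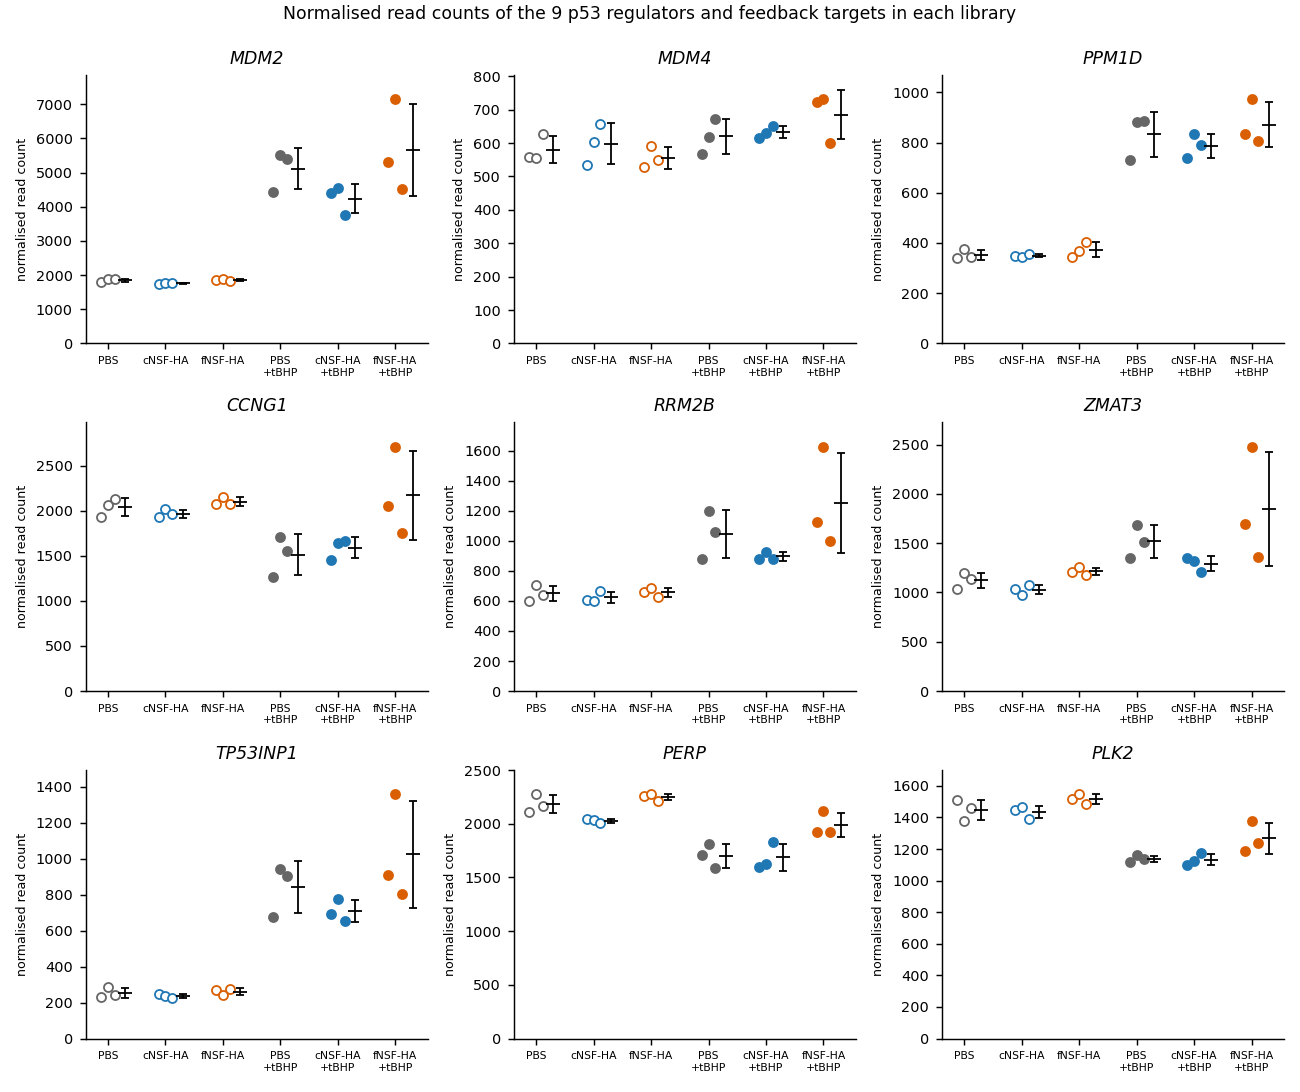
Normalised read counts (linear axes from 0) of the 9 genes in the 18 libraries by group. Open points are libraries without tBHP, filled points are libraries after tBHP, and bars give the mean and SD of 3 replicates. MDM2, PPM1D, TP53INP1 and RRM2B separate fully by tBHP as higher after it, and PLK2 as lower. MDM4 hardly moves, and the highest point of 7 panels is replicate 2 of the fNSF-HA cells after tBHP.

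MDM2 had normalised read counts of 1794, 1872 and 1882 after PBS, 1735, 1766 and 1776 after cNSF-HA and 1862, 1895 and 1835 after fNSF-HA. With tBHP the counts were 4424, 5522 and 5382, then 4389, 4555 and 3754, then 5322, 7151 and 4506, for the same pre-incubations. Every tBHP library lay above every library without tBHP, and the spread within a group was far wider after tBHP than before. The log2 response was 1.46 ± 0.12 (SE) after PBS, 1.26 after cNSF-HA and 1.58 after fNSF-HA (limma adjusted p = 2.95e-08, 2.08e-07 and 1.35e-08).

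MDM4, which binds p53 but has little ligase activity of its own, had counts of 558, 556 and 627 in PBS cells and 569, 619 and 672 after tBHP. In cNSF-HA cells they were 534, 602 and 657 before and 615, 631 and 651 after. In both settings the libraries with and without tBHP overlapped, and the log2 responses were 0.09 (95% interval -0.11 to 0.30) and 0.09 (-0.12 to 0.29). In fNSF-HA cells MDM4 went from 528, 590.3 and 548 to 723, 732 and 601 and passed the test with a log2 response of 0.30 (limma adjusted p = 0.0193). That call was lost without replicate 1 or 3 of the unstressed group (adjusted p = 0.0776 and 0.0563), and without replicate 1 of the stressed group (0.0811), and when only these 2 groups were fitted (0.0710).

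The ratio of MDM2 to MDM4 counts within a library was higher in every library with tBHP. It was 3.19 ± 0.18 (SD, n = 3) after PBS, 2.96 ± 0.27 after cNSF-HA and 3.36 ± 0.16 after fNSF-HA. With tBHP it was 8.24 ± 0.60, 6.71 ± 0.82 and 8.21 ± 1.35. Each tBHP group lay above its own control group, and the two-sided exact permutation p was 0.1 each time, which is the smallest that 3 against 3 libraries allow. After tBHP the ratio in cNSF-HA cells, at 5.77 to 7.22, lay below that of PBS cells, at 7.78 to 8.91, and that of fNSF-HA cells, at 7.37 to 9.77 (exact permutation p = 0.1 for both). It was 1 of 4 ratios computed in 9 comparisons each, and all p of 0.1 became 0.2 when adjusted over the 36 tests. The other ratios after tBHP did not set cNSF-HA apart from both groups. Against fNSF-HA the exact permutation p was 0.8 for MDM2 to CCNG1, 0.2 for PPM1D to MDM2 and 0.5 for MDM2 to ZMAT3, and against PBS it was 0.1, 0.1 and 0.5.

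PPM1D, which removes activating phosphates from p53 and from the kinases that signal to it, gave the most even response. Its counts were 339, 377 and 344 in PBS cells and 729.7, 882 and 885 after tBHP. Pre-incubation with cNSF-HA gave 350.2, 343 and 355 before and 738, 833 and 789.8 after tBHP, and fNSF-HA gave 344, 369.5 and 403, then 833, 973 and 805. No library with tBHP overlapped one without, and the log2 responses were 1.23, 1.17 and 1.22 in PBS, cNSF-HA and fNSF-HA cells (limma adjusted p = 1.31e-08, 2.75e-08 and 1.63e-08).

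CCNG1 encodes cyclin G1, a p53 target that brings a phosphatase to MDM2 and so favours p53 turnover. It had 1932, 2061 and 2132 counts in PBS cells and 1265, 1711 and 1558 after tBHP, which was 0.735 of the control level (log2 -0.44 ± 0.12 SE, limma adjusted p = 0.00618). In cNSF-HA cells it went from 1926, 2017 and 1962 to 1454, 1645 and 1665 (log2 -0.31, adjusted p = 0.0429), a call lost when any 1 library of these groups was left out (adjusted p up to 0.147, without replicate 1 after tBHP), with edgeR (0.0813) and with no filter on low values (0.0790). In fNSF-HA cells the counts were 2072, 2158 and 2077 before and 2050.2, 2714 and 1752 after, with 1 tBHP library above and 2 below all controls. The log2 response there was 0.02 (95% interval -0.24 to 0.28), and without replicate 2 it was -0.15.

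TP53INP1, a stress protein that promotes cell cycle arrest and autophagy, showed the largest response of the 9. Its counts rose from 229, 286 and 245 to 679, 946 and 906 in PBS cells, and from 250, 238 and 225 to 696, 774 and 656 with cNSF-HA. With fNSF-HA they rose from 268, 240.4 and 277 to 910.2, 1361 and 802. The groups were far apart, with log2 responses of 1.72, 1.57 and 1.93 (limma adjusted p = 1.01e-07, 3.50e-07 and 2.91e-08).

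RRM2B, the ribonucleotide reductase subunit that supplies nucleotides for DNA repair, had counts of 603, 706 and 643 in PBS cells and 881, 1201 and 1061 after tBHP. The counts went from 608, 597 and 667 to 880.2, 929 and 882 with cNSF-HA. They went from 663, 687 and 627 to 1126, 1629.7 and 1002 with fNSF-HA. All tBHP libraries exceeded all controls, and the log2 responses were 0.68, 0.52 and 0.89 (limma adjusted p = 5.26e-04, 0.00413 and 4.65e-05).

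ZMAT3, an RNA-binding zinc finger protein that acts in p53-dependent splicing and RNA decay, rose less. Its counts were 1036, 1193 and 1136 in PBS cells and 1354, 1689.7 and 1512 after tBHP, a log2 response of 0.43 (limma adjusted p = 0.0183). The call was lost without replicate 1 before tBHP (adjusted p = 0.0717) or without replicate 2 after it (0.0783). In cNSF-HA cells the counts of 1038, 977 and 1073 before and 1353, 1316 and 1207 after did not overlap, yet the log2 response of 0.33 missed the threshold (adjusted p = 0.0678). It passed when the spread was estimated from these 6 libraries alone (limma adjusted p = 0.00388), with quantile normalization (0.0427), with edgeR (0.0293) and with the trend over GC content and length removed (log2 0.74). In fNSF-HA cells ZMAT3 rose from 1205, 1254 and 1181 to 1695, 2482 and 1362 (log2 0.56, adjusted p = 0.00450). Without replicate 2 after tBHP the response was 0.32 (adjusted p = 0.00946), and with only these 2 groups in the fit the adjusted p was 0.0703.

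PERP, a membrane protein of cell junctions and p53-dependent apoptosis, fell in all 3 settings. It had 2107, 2274 and 2167 counts in PBS cells and 1709, 1809 and 1585 after tBHP (log2 -0.36, limma adjusted p = 3.11e-04). In cNSF-HA cells it went from 2045, 2032 and 2007 to 1599, 1627 and 1833 (log2 -0.27, adjusted p = 0.00360). In fNSF-HA cells it went from 2255, 2276 and 2214 to 1927, 2117 and 1920.2. That smallest fall, by 0.18 on the log2 scale, passed narrowly (adjusted p = 0.0457) and was lost without any of 5 of the 6 libraries, the exception being replicate 2 after tBHP (adjusted p otherwise 0.0798 to 0.139). It was also lost with edgeR (0.176), with no filter on low values (0.0951) and with only these 2 groups in the fit (0.104).

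PLK2, a polo-like kinase of centriole duplication that p53 induces, also fell. Its counts were 1507, 1380.1 and 1457 in PBS cells and 1120.1, 1159 and 1135 after tBHP. With cNSF-HA they went from 1448, 1466 and 1388 to 1102, 1125 and 1174, and with fNSF-HA from 1515, 1548 and 1488 to 1189.9, 1374 and 1237. The libraries with and without tBHP did not overlap, and the log2 responses were -0.35, -0.34 and -0.26 (limma adjusted p = 2.78e-04, 3.55e-04 and 0.00367).

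**Figure D2:**
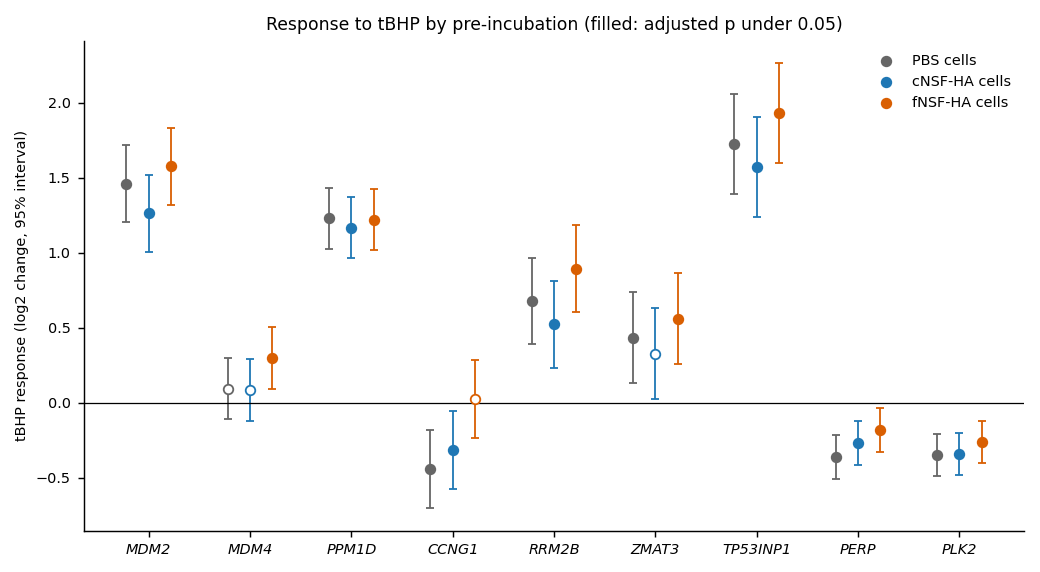
Log2 change of each gene on tBHP-treatment in PBS (grey), cNSF-HA (blue) and fNSF-HA (orange) pre-incubated cells, with 95% intervals from limma on 18 libraries. Filled points passed an adjusted p of 0.05. MDM2, PPM1D, TP53INP1 and RRM2B lie above 0 and PERP and PLK2 below 0 in all 3 settings, while CCNG1 moves from -0.44 in PBS cells to 0.02 in fNSF-HA cells.

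In cNSF-HA cells 4 of the 9 members rose and 3 fell, beside 24% and 26.8% of all genes tested. In fNSF-HA cells 6 rose and 2 fell, beside 19.2% and 22.7%. MDM2, PPM1D, TP53INP1 and RRM2B rose and PERP and PLK2 fell in each of the 3 settings, which have no control libraries in common.

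The responses were also read beside the base composition of the transcripts. The longest transcripts of the 9 genes hold 36.4% to 47.2% GC. RRM2B, CCNG1, ZMAT3 and TP53INP1 are in the lowest GC quintile of the tested genes, MDM2, MDM4, PPM1D and PERP are in the second quintile, and PLK2 is in the middle one. In PBS cells the median log2 response to tBHP was -0.45 for genes in the lowest quintile and 0.28 for genes in the highest. CCNG1, at -0.44, is in the lowest quintile, and PERP, at -0.36, is in the second, whose median was -0.18. With each library's trend over GC content and exon length removed, CCNG1 was at 0.01 in PBS cells (limma adjusted p = 0.899), and PERP was at -0.04 (adjusted p = 0.574). In cNSF-HA cells they were at 0.04 and 0.0043 (adjusted p = 0.577 and 0.962), on the other side of 0, and PERP was at -0.02 in fNSF-HA cells (0.810), so its call was lost in all 3 settings. GC content and length were removed together, so their parts cannot be told apart. In the same fit MDM4 passed the test in each setting, with log2 responses of 0.31, 0.38 and 0.45 in PBS, cNSF-HA and fNSF-HA cells. CCNG1 passed in fNSF-HA cells at 0.25. PLK2 kept its fall at -0.35, -0.32 and -0.29. MDM2 was then at 1.71 in PBS cells and TP53INP1 at 2.11, with RRM2B at 1.20 and ZMAT3 at 0.81.

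Other genes of the pathway gave a frame for these values. The lists were written by hand, with earlier results of these data known. Of 37 tested p53 targets outside the 9, 31 rose and none fell in PBS cells on tBHP-treatment, beside 24.2% and 26.9% of all genes. With cNSF-HA 30 rose, beside 24% of all genes, and with fNSF-HA 34, beside 19.2%, again with none falling. The median log2 responses were 0.93, 0.97 and 0.82, beside 0.00 over all genes in PBS cells. The largest changes in PBS cells were those of GDF15, a secreted stress cytokine (log2 6.65 ± 0.28 SE, limma adjusted p = 3.95e-12), BBC3, which encodes the apoptosis inducer PUMA (3.12), and BTG2, an antiproliferative protein (3.09). GDF15 had a mean count of 38.6 ± 3.80 (SD, n = 3) before and 4061 ± 1128 after tBHP.

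Of 28 regulators of p53, 11 rose and 7 fell in PBS cells, whereas 9 and 8 did with cNSF-HA and 10 and 8 with fNSF-HA. Over all genes 24.2%, 24% and 19.2% rose and 26.9%, 26.8% and 22.7% fell, and the falls of the regulators were near those shares. The 3 largest changes in PBS cells were falls. ATR, a kinase that signals replication stress to p53, went from 1371 ± 18.7 to 547 ± 68.7 (mean ± SD, n = 3, log2 -1.33, limma adjusted p = 2.24e-08). RCHY1, another ubiquitin ligase for p53, fell by 1.18 on the log2 scale and SIRT1, a deacetylase of p53, fell by 0.77. With the trend over GC content and length removed, ATR was at -0.98, RCHY1 at -0.70 and SIRT1 at -0.42.

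Whether intact and fragmented HA left the stressed cells with different levels was asked next. After tBHP all 9 members had lower means with cNSF-HA than with fNSF-HA, and none passed the adjusted test, as was so for every gene tested (0% called). The log2 differences, cNSF-HA minus fNSF-HA, were -0.40 for MDM2, -0.11 for MDM4, -0.14 for PPM1D, -0.43 for CCNG1 and -0.45 for RRM2B. They were -0.47 for ZMAT3, -0.50 for TP53INP1, -0.24 for PERP and -0.16 for PLK2. The smallest adjusted p was 0.0981, shared by 6 of them. An unadjusted p under 0.05 and a lower value in cNSF-HA cells was found for 7 of the 9, all but MDM4 and PPM1D, beside 16.7% of all genes. The 3 cNSF-HA libraries lay below all 3 fNSF-HA libraries for 6 members (CCNG1, RRM2B, ZMAT3, TP53INP1, PERP and PLK2), beside 8.29% of all genes. MDM2 overlapped by 1 library, since its highest value with cNSF-HA, 4555, was just above the lowest with fNSF-HA, 4506.

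The size of this difference and its call moved with single libraries and with the tool. With only these 2 groups in the limma fit, 5 members had an unadjusted p under 0.05, beside 1001 of 13686 genes in either direction. The fit of all libraries gave 7 members and 4412 genes. Without replicate 2 of the fNSF-HA cells after tBHP, the library with the GC shift, the median over the 9 members went from -0.40 to -0.22, MDM2 was at -0.22 and TP53INP1 at -0.27, and the smallest adjusted p was 0.572. Without replicate 3 instead, 6 of the 9 passed as lower in cNSF-HA cells (MDM2, CCNG1, RRM2B, ZMAT3, TP53INP1 and PERP, with limma adjusted p from 0.00132 to 0.0116), beside 21.1% of all genes in that setting. With DESeq2 on the recovered reads 6 of the 9 passed, with adjusted p from 0.0338 to 0.0396, and with edgeR none did. Beside them, DESeq2 called 659 genes lower, or 6.94% of the 9497 that it kept for adjustment. With the trend over GC and length removed the median was -0.16. MDM2 was then at -0.17, CCNG1 at -0.20, TP53INP1 at -0.27 and PERP at -0.05, while MDM4 was at 0.10 on the other side of 0, and none passed (smallest adjusted p 0.117, for CCNG1). Genes of the lowest GC quintile had a median difference of -0.27 in this comparison, and those of the highest quintile 0.34. The 2 pathway lists had medians of -0.06 over the 37 targets and -0.15 over the 28 regulators.

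**Figure D3:**
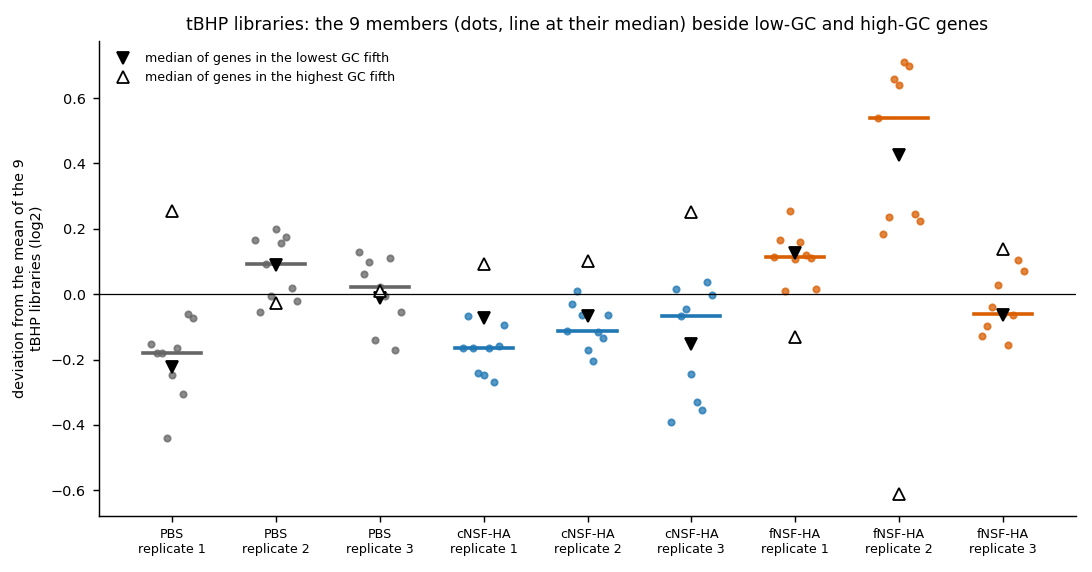
Log2 deviation of the 9 genes (dots, with a line at their median) from the mean of the 9 tBHP libraries in each of these libraries, beside the medians of all genes in the lowest (filled triangles) and highest (open triangles) quintile of transcript GC content. In replicate 2 of the fNSF-HA cells the 9 genes have a median of 0.54 and the low-GC genes 0.43, and in replicate 1 of the PBS cells they have -0.18 and -0.22.

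The median of the 9 members lay on the same side of 0 as that of the low-GC genes in 8 of the 9 tBHP libraries, the exception being replicate 3 of the PBS cells, at 0.02 and -0.01. In replicates 1 and 2 of the fNSF-HA cells all 9 members lay above the tBHP mean. In replicate 1 of the PBS cells and replicate 1 of the cNSF-HA cells none did. The other 5 libraries had members on both sides. In the unstressed libraries the medians of the 9 members, taken from the mean of those libraries, stayed within -0.08 and 0.08.

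Against PBS cells, fNSF-HA cells had higher means of all 9 members after tBHP, and none passed the adjusted test, beside 0.139% of all genes. CCNG1 came nearest with a log2 difference of 0.51 (95% interval 0.25 to 0.77, limma adjusted p = 0.0750), followed by PERP at 0.23 and PLK2 at 0.15. Only these 3 had an unadjusted p under 0.05, beside 11.7% of all genes that were higher at that level, and only these 3 had fNSF-HA libraries all above the PBS libraries, beside 6.86%. With only these 2 groups in the limma fit, 1 member had an unadjusted p under 0.05, beside 689 of 13686 genes in either direction. CCNG1 passed with DESeq2 (adjusted p = 0.00747), with the trend over GC and length removed (0.26, adjusted p = 0.0393), without replicate 3 of the fNSF-HA cells (adjusted p = 0.00214) and without replicate 2 of the PBS cells (0.0411). PERP passed with DESeq2 (adjusted p = 0.0391) and without replicate 3 of the fNSF-HA cells (0.0212). RRM2B and ZMAT3 passed only without that replicate (0.0373 and 0.0139). In these settings the genes called higher were 3.02% of the 11325 that DESeq2 kept for adjustment and 0.199% of 12532 with the trend removed. Of all 13686 genes, 13.9% were called higher without replicate 3 of the fNSF-HA cells and 1.09% without replicate 2 of the PBS cells. Without replicate 2 of the fNSF-HA cells CCNG1 was at 0.34 (adjusted p = 0.237), ZMAT3 at 0.01 and MDM2 at -0.05.

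Between cNSF-HA and PBS cells after tBHP no gene passed (0% called). MDM2 had the only unadjusted p under 0.05 among the members, with a log2 difference of -0.27 (95% interval -0.53 to -0.01, adjusted p = 0.569), beside 4.86% of all genes lower at that level. Without replicate 1 of the PBS cells after tBHP, 3 members were lower at that level (MDM2, RRM2B and TP53INP1), beside 6.9% of all genes, and the median over the 9 went from -0.08 to -0.17. Without replicate 2 or 3 of the PBS cells, or replicate 3 of the cNSF-HA cells, none was. ZMAT3, with 1353 at most in cNSF-HA cells and 1354 at least in PBS cells, was the only member whose cNSF-HA libraries all lay lower, by a margin of about 1 count, beside 5.01% of all genes. The differences of the other members ran from -0.24 for TP53INP1 to 0.08 for CCNG1.

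**Figure D4:**
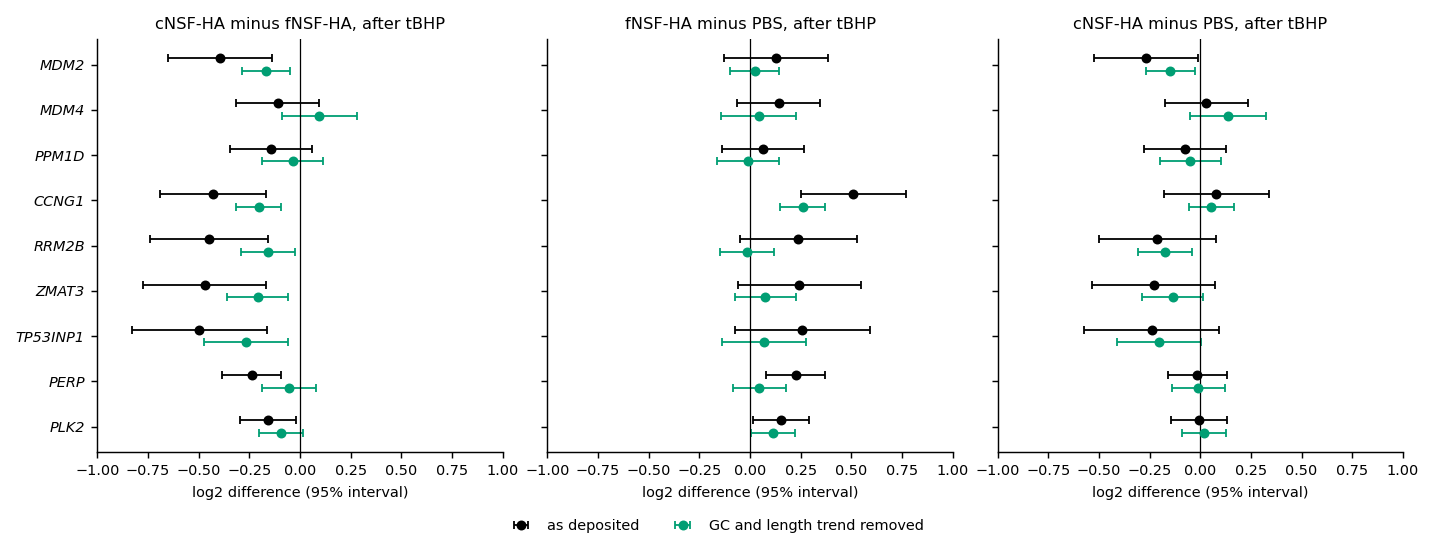
Log2 differences between pre-incubations after tBHP with 95% intervals, from the deposited values (black) and after removal of each library's trend over GC content and exon length (green). Against fNSF-HA all 9 black points of cNSF-HA lie below 0, and the green points lie nearer to 0, with MDM4 above it.

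The responses themselves were compared as interactions. Among the 9 members none differed between cNSF-HA and fNSF-HA cells (0% of all genes called), between cNSF-HA and PBS cells (0%) or between fNSF-HA and PBS cells (0%) in the adjusted test. The differences of the log2 response between cNSF-HA and fNSF-HA cells ran from -0.37 for RRM2B (95% interval -0.78 to 0.04) to -0.05 for PPM1D (-0.34 to 0.23), none with an unadjusted p under 0.05, beside 3.89% of all genes. Their median was -0.23. Without replicate 3 of the fNSF-HA cells after tBHP it was -0.43, and 6 members had an unadjusted p under 0.05 (smallest limma adjusted p 0.0892), beside 26% of all genes in that setting. Without replicate 2 it was -0.13 with 2 members above 0, and with the trend over GC and length removed it was -0.06. CCNG1 and RRM2B had an unadjusted p under 0.05 with that trend removed, beside 5.51% of the 12532 genes in that fit, and with edgeR, beside 3.7% of all genes. Between cNSF-HA and PBS cells they ran from -0.20 for MDM2 to 0.13 for CCNG1, also with none, beside 4.06%. Between fNSF-HA and PBS cells CCNG1 alone had an unadjusted p under 0.05, with a difference of 0.47 (95% interval 0.10 to 0.83, limma adjusted p = 0.667), beside 6.88% of all genes. These intervals allow differences as large as those between the tBHP groups.

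Before tBHP the 3 pre-incubations lay close together. Between cNSF-HA and fNSF-HA cells no gene passed in the fit of all libraries (0% called). PERP, at 2007 to 2045 against 2214 to 2276, was the only member with an unadjusted p under 0.05 (log2 -0.15, 95% interval -0.29 to -0.00342), beside 0.687% of all genes. The cNSF-HA libraries lay below all fNSF-HA libraries for MDM2, CCNG1, ZMAT3, PERP and PLK2, beside 17.1% of all genes. When the spread was estimated from these 6 libraries alone, ZMAT3 (log2 -0.24, limma adjusted p = 0.00136) and PERP (adjusted p = 0.00609) passed as lower in cNSF-HA cells, beside 5.38% of all genes. ZMAT3 had 977 to 1073 counts with cNSF-HA and 1181 to 1254 with fNSF-HA. The log2 differences of the other 7 ran from -0.14 for TP53INP1 to 0.10 for MDM4.

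Against PBS, cNSF-HA moved no member past the adjusted test (0% of all genes called) and none past an unadjusted p of 0.05, beside 0.504% of all genes lower at that level. With only these 2 groups in the limma fit, 2 members had an unadjusted p under 0.05, beside 1494 of 13686 genes in either direction. No gene passed the adjusted test there. MDM2 and PERP had all cNSF-HA libraries below all PBS libraries, beside 8.33% of all genes, with 1735 to 1776 against 1794 to 1882 for MDM2. For fNSF-HA against PBS no gene passed either (0%). None of the 9 was past an unadjusted p of 0.05, beside 0.263% of all genes higher at that level, and none had fNSF-HA libraries all above the PBS libraries, beside 9.17%. With only the fNSF-HA and PBS groups in the limma fit, 1 member had an unadjusted p under 0.05, beside 1174 of 13686 genes in either direction. In that fit 21 genes, none of them a member, passed the adjusted test as lower. The differences ran from -0.06 for MDM4 to 0.12 for ZMAT3.

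The genes with the most similar profiles were sought among 10312 genes with a mean of at least 100, by Pearson's r over the 18 libraries. The points share the step between untreated and tBHP libraries, and r is given as a description. MDM2 was most like PTGS2, UGDH and PDE8A (r = 0.996 each), and TP53INP1 was most like MDM2 itself (0.995). PPM1D was most like TOB1, PSAT1 and UGDH (0.993 each). RRM2B followed CCNG2 and BNIP3L (0.982 and 0.981), and ZMAT3 followed VPS4B, C6orf62 and FGF2 (0.973 to 0.970). CCNG1 was most like JKAMP (0.970), PERP most like VAMP3 (0.965) and PLK2 most like FAM49B (0.976). MDM4 had no close neighbour, with PKNOX1 nearest at 0.890.

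With the group means taken out, r over the 9 tBHP libraries ran from 0.15 for MDM4 and PERP to 0.98 for RRM2B and TP53INP1, with a median of 0.74 over the 36 pairs of members. RRM2B and CCNG1 had r = 0.96, MDM2 and ZMAT3 0.96, and MDM2 and PERP 0.16. These points share the GC shift described above. Among the unstressed libraries the 36 values ran from -0.71 to 0.92 with a median of 0.29.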

How the data were processed

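IMR90 RNA was extracted with Trizol, made into libraries with the TruSeq RNA V2 kit and sequenced in single-end reads of 100 nt. The submitters' processing notes name Trimmomatic 0.32, STAR 2.5.2b, featureCounts of Subread 1.5.0-p3, DESeq2 and the build GRCh38.p7. The deposited values (signal) are read counts divided by DESeq2 size factors, as the authors normalised them. In every library 100% of values were whole reads within 0.01 read, so reads were recovered. The deposited p-value and q-value columns and a ranking score come from a comparison of the authors and were not used.

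The 13686 genes with a mean value of at least 10 were fitted on log2(value + 1), which understates changes of low genes, with limma 3.58.1 in R 4.3.3 (trended prior variance, group means as coefficients, two-sided tests, p-values adjusted after Benjamini and Hochberg). Alternatives were pseudocounts of 0.1 and 5, no filter or a minimum of 50, rescaling and quantile normalization. Recovered reads were fitted with edgeR 4.0.16 (quasi-likelihood) and DESeq2 1.42.0. Further settings were a replicate block, only the compared groups, each library left out, and removal of the trend over transcript GC and exon length. That trend used splines with 5 degrees of freedom on 12532 genes or 91.6% (GENCODE 29), with all exons of a gene merged for its length. Scripts were tested on simulated data. The paper calls its replicates biological, and no pair of libraries was identical. Intervals and p-values of the main fit use 1 estimate of spread per gene from all 18 libraries, not that of the groups compared. For MDM2 the SD was 1.23% of the mean in unstressed cNSF-HA cells and 23.9% in stressed fNSF-HA cells. Intervals can thus be too wide before tBHP and too narrow for stressed fNSF-HA cells. Libraries of the same replicate number were not paired.

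The members and lists were chosen with earlier results of these data known. All members are named. From each list the text names the 3 genes that passed, had a mean of at least 100 and changed most in PBS cells. RRM2B and TP53INP1 sequences were not used here. One similar profile is not reported here.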

Additional observations from a re-analysis of the deposited data

How the results depend on the processing

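The counts of members called in the 3 tBHP responses (8, 7 and 8) stayed within 1.5 times under every alternative, except in fNSF-HA cells with only the compared groups in the fit (5), and ranged over 7 to 8, stood at 6 each time and ranged over 6 to 8 when 1 library was left out. The other 9 counts were 0, and stayed at 0 in all settings other than these. For cNSF-HA against fNSF-HA after tBHP, DESeq2 called 6, and leaving out 1 library gave 0 to 6. For fNSF-HA against PBS after tBHP, DESeq2 called 2, the replicate block 1 (CCNG1, adjusted p = 0.0499), removal of the GC and length trend 1, both together 1, and leaving out 1 library gave 0 to 4. For cNSF-HA against fNSF-HA without tBHP, only the compared groups gave 2. With the GC and length trend removed, with or without the replicate block, the sign turned for CCNG1 in the response of PBS cells (0.0088) and cNSF-HA cells (0.037), PERP in that of cNSF-HA cells (0.0043), MDM4 in cNSF-HA against fNSF-HA (0.10), PPM1D (-0.011) and RRM2B (-0.014) in fNSF-HA against PBS, all after tBHP, and CCNG1 (0.0080) and RRM2B (0.035) in cNSF-HA against fNSF-HA without it. In the other comparisons it turned for 11 values, each then within 0.071 of 0. Leaving out 1 library at a time, which turned the sign without replicate 2 of the stressed fNSF-HA cells, gave CCNG1 -0.15 to 0.17 in the fNSF-HA response and, for fNSF-HA against PBS after tBHP, MDM2 -0.054 to 0.28 and PPM1D -0.026 to 0.12. PPM1D also turned without replicate 1 of the stressed PBS cells. The cause was not tested.

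Same-numbered libraries shared no clear deviation (r from -0.12 to 0.33, with 7 of 45 pairs over 0.1), so the numbers were not read as pairs. The replicate block also brought ZMAT3 past the threshold in cNSF-HA cells (adjusted p = 0.0465), and in the difference of responses between cNSF-HA and fNSF-HA cells it gave 2 members an unadjusted p under 0.05. The lowest count of any member in any library was 218 reads.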
